A study of Mus musculus with 6 samples.

Results

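The thrombospondin family of the mouse has 5 genes, Thbs1, Thbs2, Thbs3, Thbs4 and Comp, and all 5 were found by symbol among the 55401 genes of the table. All 5 are among the 13590 genes with enough reads to test, Comp only through its WT libraries. They were measured by RNA-seq in CAFs (cancer-associated fibroblasts), cells of a tumour's stroma, which had been isolated from tumours grown from mouse tumour organoids placed in the rectum and were then cultured on fibronectin in medium with serum. The hosts of 3 libraries were Thbs2KO mice, which carry a knockout of Thbs2, and the hosts of the other 3 were wild-type (WT) mice. All 6 cultures thus came from the same tumour model and differed by label only in host genotype, and the sources used here give neither the deleted part of Thbs2 nor the age, sex and strain of the mice. Whether a replicate is a mouse of its own is not stated, so p-values reflect how much these 6 libraries vary, possibly for technical reasons alone.

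Thrombospondins are secreted, calcium-binding glycoproteins that regulate how cells meet their matrix and are not structural fibres themselves. Thbs1 and Thbs2 form trimers, carry the type 1 repeats through which CD36 is bound, and restrain the growth of blood vessels; Thbs1 can also activate latent TGF-beta, and Thbs2 helps to clear matrix metalloproteinases through the receptor LRP1. Thbs3, Thbs4 and Comp form pentamers, lack the type 1 repeats, and are best known from cartilage, tendon, bone and muscle. In tumours, fibroblasts are a main source of THBS2. The comparison of Thbs2KO with WT CAFs asks how far Thbs2 transcripts were lost, what remained of the family, and whether any other member was higher where Thbs2 was low.

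Whether reads of the relatives can be told apart was looked at first. Over aligned coding bases Thbs1 and Thbs2 were 67.0% identical, Thbs3, Thbs4 and Comp were 66.8% to 68.4% identical to each other, and pairs across these subgroups were 58.4% to 63.2% identical (GENCODE M21 transcripts). These stretches are shown because they hold the longest runs of coding bases that any 2 members share. Capitals mark the run shared by Thbs1 with Thbs2 and by Thbs4 with Comp, 26 bases in each pair, and lower case marks the coding bases on either side, written 5′ to 3′ as cDNA.
Thbs1, coding bases 2302 to 2351: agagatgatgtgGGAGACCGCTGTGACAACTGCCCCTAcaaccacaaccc
Thbs2, coding bases 2305 to 2354: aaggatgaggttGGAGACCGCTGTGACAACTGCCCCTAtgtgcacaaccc
Thbs4, coding bases 2275 to 2324: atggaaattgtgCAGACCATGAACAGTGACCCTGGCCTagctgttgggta
Comp, coding bases 1666 to 1715: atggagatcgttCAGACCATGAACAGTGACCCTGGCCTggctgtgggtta
No stretch of 50 bases was shared between any 2 members. Of the 7000 distinct 50-base stretches in Thbs2 transcripts, 0 occurred in any other annotated gene on either strand. The read length is not given in the sources used here, and shorter reads could share more.

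Libraries held 19649066 to 24417464 expected reads. Of all pairs of libraries, Thbs2KO replicates 1 and 2 differed least: chi-square over genes, divided by its degrees of freedom, was 3.78, against 15.7 to 121.8 for the other pairs, so values with both summed are given where they end a call or bear on an interval. WT replicate 1 and Thbs2KO replicate 3 stood apart from the other libraries of their genotype on the second principal component (27.9% of the variance). They were at -44.9 and -16.3 there, and the other libraries were at 4.18 to 22.1. Thbs2KO replicate 3 was thus nearer to WT replicate 3 than to WT replicate 1 on it. All 10 fibroblast markers were at or above 1 CPM (reads scaled by TMM to a common library size) in every library. Below 1 CPM in every library were 4 of 6 leukocyte markers (Ptprc, Adgre1, Itgam and Cd3e), 3 of 5 platelet markers (Pf4, Ppbp and Gp9) and 4 of 6 endothelial markers (Pecam1, Cdh5, Vwf and Tie1). The other 2 platelet and 2 endothelial markers were above 1 CPM in every library, and 0 of the 6 leukocyte markers were. The leukocyte markers summed to 0.831 to 7.82 CPM in Thbs2KO and 1.93 to 11.98 CPM in WT. Of 6 smooth muscle and pericyte markers, 5 were at or above 1 CPM in every library and Rgs5 was below it in all. These 6 summed to 323.0 to 442.1 CPM in Thbs2KO and 291.1 to 940.1 CPM in WT, so the genotypes overlapped. Summed marker levels did not overlap between genotypes for the 8 epithelial genes, at 7.18 to 9.53 CPM in Thbs2KO and 19.7 to 26.2 CPM in WT. Of these 8, 1 was at or above 1 CPM in every library and 2 were below it in every library. Nor did the sums overlap for the 5 muscle genes, at 22.0 to 31.8 CPM in Thbs2KO and 50.3 to 191.3 CPM in WT. Of these 5, 4 were below 1 CPM in every library, with Myod1 and Ckm at 0 reads, so that sum rests mostly on Acta1. By a narrow gap the sums also did not overlap for the 6 endothelial genes, at 32.0 to 50.4 CPM in Thbs2KO and 11.7 to 31.7 CPM in WT. The gap was narrow too for the 5 platelet genes, at 6.20 to 6.24 CPM in Thbs2KO and 4.47 to 6.11 CPM in WT. Of all tested genes taken singly, 19.7% did not overlap between genotypes, both directions counted. The part of these genes' source cells in the family's values was not tested, and fewer cells of a kind cannot be told apart from less RNA per cell in these bulk libraries.

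Thbs2 lies on chromosome 17, at chr17:14665500-14694235 on the minus strand of mm10 (ENSMUSG00000023885.9, 22 exons in its longest transcript). Its level was 537.8, 424.4 and 411.7 CPM in Thbs2KO replicates 1, 2 and 3, and 2325, 4163 and 3702 CPM in WT replicates 1, 2 and 3. All Thbs2KO libraries were below all WT libraries, which is the direction the labels call for. Thbs2 fell to 13.5% of the WT mean (log2 fold change -2.89, SE 0.246, adjusted p = 0.00521 by edgeR's quasi-likelihood test with Benjamini-Hochberg adjustment). It was the only member of the 5 to pass the test, in which 1.09% of 13590 genes changed. An exact two-sided permutation test on CPM gave p = 0.1, which is as small as 3 libraries a side can give.

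The transcript remained readily counted in the Thbs2KO libraries, with 28487 reads summed over the 3 libraries against 237535 in WT. By reads it ranked 218, 320 and 353 among all genes in Thbs2KO replicates 1, 2 and 3, and 35, 14 and 22 in WT replicates 1, 2 and 3. Since the counts are summed over the whole gene, they cannot show which exons the remaining reads cover or whether they come from a transcript that encodes protein.

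Thbs1, the angiogenesis inhibitor and TGF-beta activator closest to Thbs2, was the dominant member (chr2:118111876-118127133, plus strand, mm10, ENSMUSG00000040152.8). It measured 10170.5, 9968 and 13835 CPM in Thbs2KO replicates 1, 2 and 3, and 11126, 15773 and 15099 CPM in WT replicates 1, 2 and 3. The genotypes overlapped: Thbs2KO replicate 3 lay above WT replicate 1, while Thbs2KO replicates 1 and 2 lay below every WT library. Thbs1 was the most counted gene of all in WT replicates 2 and 3, and it ranked 3 in the other 4 libraries. Its mean was 11325 ± 2177 CPM in Thbs2KO and 13999 ± 2511 CPM in WT (SD, n = 3 each). The log2 fold change was -0.31, with an SE of 0.194, and did not pass the test (edgeR, Benjamini-Hochberg adjusted p = 0.594).

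That Thbs1 comparison depended on the libraries that stood apart. Without WT replicate 1 and Thbs2KO replicate 3 the log2 fold change was -0.62, and Thbs1 was called lower (edgeR, Benjamini-Hochberg adjusted p = 0.00101). In that fit 11.2% of all tested genes changed and 6.37% were lower, so the call was made in a fit that called many more genes. It kept the pairs of libraries most alike, Thbs2KO replicates 1 and 2 and WT replicates 2 and 3, and the Thbs1 SE was 0.0485. Its p may thus understate how much cultures vary. With all 6 libraries the 95% interval of the Thbs1 fold ran from 0.587 to 1.12. A share of 1.89% of the 50-base stretches of Thbs1 transcripts also occurred in Gm29233, an antisense lincRNA, which had 0 reads in every library.

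Thbs3, a pentameric member known mainly from bone and cartilage, was the steadiest of the family (chr3:89215180-89226837, plus strand, mm10, ENSMUSG00000028047.11). It measured 59.4, 62.7 and 54.4 CPM in Thbs2KO replicates 1, 2 and 3, and 55.8, 70.0 and 57.6 CPM in WT replicates 1, 2 and 3. The genotypes overlapped, with a log2 fold change of -0.056 and an SE of 0.110 (edgeR, Benjamini-Hochberg adjusted p = 0.901). The 95% interval of the fold, 0.802 to 1.15, includes a modest difference in either direction. Exons of Thbs3 overlap those of Mtx1 on the opposite strand by 318 bases, and the library kit does not mark strand, so reads there could belong to either gene. Mtx1, a mitochondrial import protein gene, measured 24.0 ± 3.49 CPM in Thbs2KO and 22.6 ± 3.84 CPM in WT (SD, n = 3 each).

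Thbs4, known from tendon, muscle and scarring tissue, was the only member with a higher mean in Thbs2KO (chr13:92751590-92794818, minus strand, mm10, ENSMUSG00000021702.7). Its level was 25.4, 25.4 and 54.0 CPM in Thbs2KO replicates 1, 2 and 3, and 5.16, 24.4 and 7.45 CPM in WT replicates 1, 2 and 3. The groups did not overlap, but WT replicate 2 lay just under the lower Thbs2KO libraries and was 4.73 times as high as the lowest WT library. Over all tested genes, 9.37% were higher with no overlap. The fitted level in Thbs2KO was 2.83 times that in WT, with a 95% interval of 1.01 to 7.93 and an SE of 0.621 on the log2 scale (edgeR, Benjamini-Hochberg adjusted p = 0.372, unadjusted p = 0.0482), and 5.72% of all tested genes were higher at an unadjusted p under 0.05.

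The size of the Thbs4 difference depended on single libraries. Without WT replicate 2 its log2 fold change was 2.47 (edgeR, Benjamini-Hochberg adjusted p = 0.0976), and without Thbs2KO replicate 3 it was 1.04 (adjusted p = 0.555). Without WT replicate 1 and without WT replicate 3 it was 1.13 and 1.24. Without both WT replicate 1 and Thbs2KO replicate 3 it was 0.68 (edgeR, Benjamini-Hochberg adjusted p = 0.626). With Thbs2KO replicates 1 and 2 summed it was 1.68 (edgeR, Benjamini-Hochberg adjusted p = 0.518).

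Comp, the cartilage oligomeric matrix protein that organises collagen in cartilage and tendon, was nearly absent (chr8:70373558-70382066, plus strand, mm10, ENSMUSG00000031849.9). It had 3, 4 and 2 reads in Thbs2KO replicates 1, 2 and 3, and 31, 12 and 22 reads in WT replicates 1, 2 and 3. Every Thbs2KO library was below every WT library, as for 10.3% of all tested genes in that direction, and Comp passed the low-count filter through the WT libraries alone. Its log2 fold change was -2.63 with an SE of 0.515 and did not pass the test (edgeR, Benjamini-Hochberg adjusted p = 0.0775). DESeq2 gave an adjusted p of 0.0168, past the threshold, where 5.14% of all tested genes passed and 2.93% were lower. Since Comp could be tested only because of its WT reads, and its reads sum to 9 in Thbs2KO and 65 in WT, its direction is given as a description and nothing is read from that p. Of 6 chondrocyte and tendon markers, 1 was at or above 1 CPM in every library and 3 were below it in every library, Acan at 0 reads, Col2a1 and Col9a1. The 6 summed to 25.6 to 27.7 CPM in Thbs2KO and 21.6 to 53.5 CPM in WT, and their part in the Comp values was not tested.

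**Figure D1:**
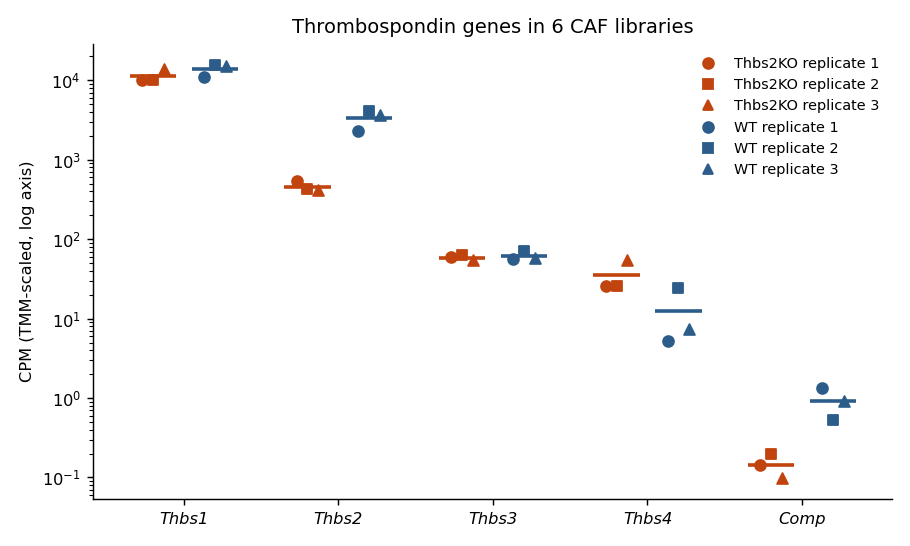
TMM-scaled CPM (log axis) of the 5 thrombospondin genes in each of 3 Thbs2KO and 3 WT libraries; points are libraries and lines are group means. Thbs2 is at 411.7 to 537.8 CPM in Thbs2KO and 2325 to 4163 CPM in WT, Thbs1 and Thbs3 overlap between genotypes, and Comp is at most 1.33 CPM.

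The order of the genes was the same in both genotypes when levels were divided by the length of the longest transcript. In Thbs2KO libraries, Thbs1 stood at 1936 ± 372 CPM per kb, Thbs2 at 77.7 ± 11.8, Thbs3 at 14.6 ± 1.04, Thbs4 at 10.9 ± 5.16 and Comp at 0.0600 ± 0.0203 CPM per kb (SD, n = 3). In WT libraries, Thbs1 stood at 2394 ± 429 CPM per kb, Thbs2 at 576.2 ± 162.2, Thbs3 at 15.2 ± 1.92, Thbs4 at 3.86 ± 3.29 and Comp at 0.384 ± 0.167 CPM per kb. Neighbours in this order had separate ranges except Thbs3 and Thbs4 in Thbs2KO, where the 2 overlapped: in Thbs2KO replicate 3 Thbs4 reached 16.9 CPM per kb and Thbs3 13.5 CPM per kb. In every WT library Thbs3 was above Thbs4.

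Thbs1 and Thbs2 together made up almost all family reads. The Thbs2 share was 4.98%, 4.05% and 2.87% in Thbs2KO replicates 1, 2 and 3, with 95% Wilson intervals of 4.89% to 5.07%, 3.97% to 4.13% and 2.81% to 2.93%. In WT replicates 1, 2 and 3 it was 17.2%, 20.8% and 19.6%, with intervals of 17.1% to 17.3%, 20.7% to 20.9% and 19.5% to 19.7%. These intervals cover counting error only, and the libraries of each genotype differed by more than that. The mean Thbs1 share was 95.2% ± 1.08 in Thbs2KO and 80.4% ± 1.82 in WT (SD, n = 3 each).

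The level of Thbs2 varied more than its share did among WT libraries, and less among Thbs2KO libraries. The highest Thbs2KO library had 1.31 times the Thbs2 CPM of the lowest, and the highest Thbs2 share was 1.74 times the lowest. The highest WT library had 1.79 times the Thbs2 CPM and 1.42 times the Thbs1 CPM of the lowest, but 1.21 times the Thbs2 share. WT replicate 1 was the lowest WT library for both genes. The Thbs2KO libraries had no such common order: Thbs2KO replicate 3 was the highest for Thbs1 and the lowest for Thbs2. The ratio of Thbs1 to Thbs2 reads was 18.9, 23.5 and 33.6 in Thbs2KO replicates 1, 2 and 3, and 4.79, 3.79 and 4.08 in WT replicates 1, 2 and 3.

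The total output of the family was lower on average in Thbs2KO, with an overlap of single libraries. Summed over the 5 genes it was 10793, 10480.3 and 14356 CPM in Thbs2KO replicates 1, 2 and 3, and 13513, 20031 and 18866 CPM in WT replicates 1, 2 and 3. Thbs2KO replicate 3 thus lay above WT replicate 1. The mean was 11876 ± 2153 CPM in Thbs2KO and 17470.1 ± 3476 CPM in WT (SD, n = 3 each), or 68.0% of WT, and no test was made of this sum because its members were chosen with results known. Family transcripts took 1.09% to 1.41% of all reads in Thbs2KO libraries and 1.31% to 1.98% in WT libraries.

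**Figure D2:**
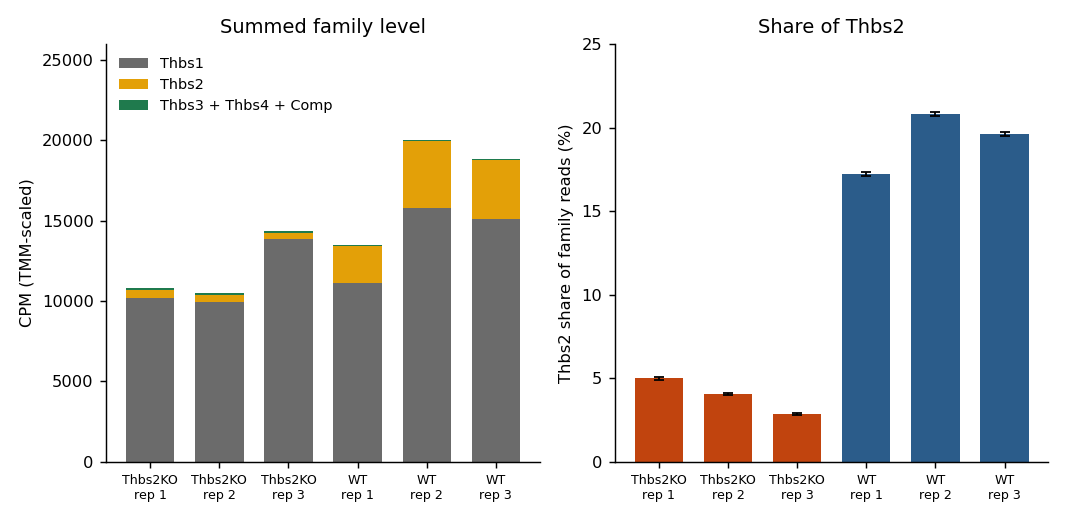
Left, summed TMM-scaled CPM of the family in each library, stacked as Thbs1, Thbs2 and the other 3 genes; right, the Thbs2 share of family reads in percent with 95% Wilson intervals (counting error only). Thbs2KO libraries total 10480.3 to 14356 CPM with a Thbs2 share of 2.87% to 4.98%, and WT libraries total 13513 to 20031 CPM with a share of 17.2% to 20.8%.

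A gain in other members that matched the Thbs2 decrease was not seen. The Thbs2 mean in Thbs2KO minus that in WT was -2939 CPM. The Thbs1 mean was also lower in Thbs2KO, a difference of -2674 CPM, and the Thbs3 and Comp means differed by -2.34 and -0.782 CPM. Only Thbs4 had a positive difference, 22.6 CPM, which equals 0.769% of the Thbs2 decrease, or 1.42% of it when both are divided by transcript length. The 4 genes other than Thbs2 summed to 11418 ± 2189 CPM in Thbs2KO and 14073 ± 2523 CPM in WT (SD, n = 3 each).

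Thbs1 alone would have had to stand at 1.21 times its WT mean to equal the Thbs2 decrease in CPM. The upper end of its 95% interval was 1.12 with all 6 libraries, below that size. With Thbs2KO replicates 1 and 2 summed the upper end was 1.27, and with single libraries left out it ran from 0.960 to 1.28, above 1.21 without Thbs2KO replicate 1, Thbs2KO replicate 2, WT replicate 2 or WT replicate 3. The size that equals the decrease was thus outside the interval with all libraries but inside it under each of those 5 alternatives. It was outside with other scalings, other filters, estimation that is not robust and a replicate block, where upper ends were 1.08 to 1.12. Without both WT replicate 1 and Thbs2KO replicate 3 the upper end was 0.707. The size of 1.21 was taken from all 6 libraries and kept for every fit.

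**Figure D3:**
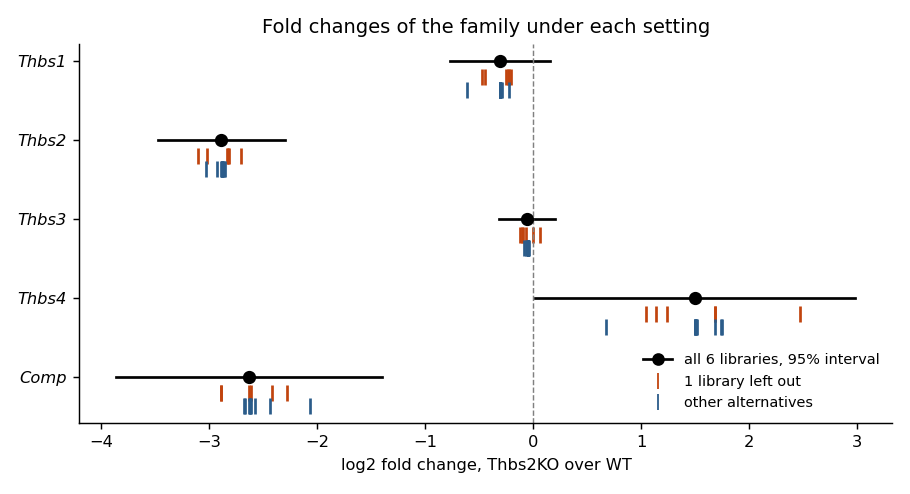
Log2 fold changes of Thbs2KO over WT for each gene, with the 95% interval over all 6 libraries in black. The 6 fits with 1 library left out are in red and the other alternatives in blue. All are edgeR fits except those of DESeq2 and limma-voom, which are among the blue. Thbs2 stays between -3.10 and -2.71 in the fits with 1 library left out, Thbs3 spans 0 in those fits, and Thbs4 runs from 1.04 to 2.47.

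Of 15 genes listed as thrombospondin receptors 14 were tested, and 0 were higher and 0 lower (edgeR, Benjamini-Hochberg adjusted p below 0.05), where 1.09% of all tested genes were called. DESeq2 called 0 of the 14, and 5.14% of all tested genes, so both counts are near the share over all genes. Without adjustment for multiple tests, 1 was higher and 1 lower at a threshold of 0.05, where 13.3% of all tested genes passed, 5.72% higher and 7.56% lower. Their median log2 fold change was -0.070, beside -0.0038 over all tested genes. The genes with the smallest p were Stim1 and Itgb3. Stim1, a calcium sensor of the endoplasmic reticulum, measured 30.0, 26.0 and 26.6 CPM in Thbs2KO and 34.6, 34.0 and 35.2 CPM in WT (log2 fold change -0.33, edgeR, Benjamini-Hochberg adjusted p = 0.151). Itgb3, the beta-3 integrin chain, measured 50.6, 46.8 and 59.4 CPM in Thbs2KO and 40.7, 45.5 and 45.0 CPM in WT (log2 fold change 0.26, edgeR, Benjamini-Hochberg adjusted p = 0.376). Cd36, the receptor of the type 1 repeats, did not have enough reads to test. Cd47, the receptor of the C-terminal part, averaged 99.3 ± 16.5 CPM in Thbs2KO and 77.1 ± 24.3 CPM in WT (SD, n = 3 each). Its genotypes overlapped (edgeR, Benjamini-Hochberg adjusted p = 0.591). Lrp1, the clearance receptor, averaged 2751 ± 117.7 CPM in Thbs2KO and 3302 ± 801.7 CPM in WT (SD, n = 3 each). Its genotypes also overlapped (edgeR, Benjamini-Hochberg adjusted p = 0.609), and WT replicate 1 was the highest library at 4226 CPM.

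Among 14 secreted partners, growth factors, proteases and matrix proteins that thrombospondins bind, 12 were tested, 0 were higher and 1 was lower by edgeR, or 0 higher and 3 lower before adjustment. Over all tested genes 0.537% were lower by edgeR and 7.56% before adjustment. The gene that fell was Fgf2, an angiogenic growth factor that Thbs1 can bind. It measured 58.8, 53.0 and 58.8 CPM in Thbs2KO and 165.1, 208.0 and 164.3 CPM in WT, with no overlap (log2 fold change -1.66, edgeR, Benjamini-Hochberg adjusted p = 0.00201). DESeq2 called 2 lower, Fgf2 and Vegfa, against 2.93% of all tested genes, and the median log2 fold change of the 12 was -0.015.

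Of 24 other genes that encode thrombospondin type 1 repeats, the ADAMTS and CCN families left aside, 16 were tested, 2 were higher and 0 lower, against 0.552% higher and 0.537% lower over all tested genes. Thsd4 is a microfibril-associated relative of the ADAMTS proteases and was kept on the list although that family was left aside. It measured 78.4, 60.3 and 101.0 CPM in Thbs2KO and 6.75, 8.41 and 7.08 CPM in WT (log2 fold change 3.43, edgeR, Benjamini-Hochberg adjusted p = 0.00121). Unc5c, a netrin receptor, measured 30.4, 31.7 and 43.4 CPM in Thbs2KO and 3.31, 4.55 and 0.670 CPM in WT (log2 fold change 3.63, edgeR, Benjamini-Hochberg adjusted p = 0.0455). The call of Unc5c was lost when any library but WT replicate 3 was left out, with adjusted p of 0.0509 to 0.164 in those fits. It was also lost with Thbs2KO replicates 1 and 2 summed (edgeR, Benjamini-Hochberg adjusted p = 0.161), with no filter (0.132) and without both WT replicate 1 and Thbs2KO replicate 3 (0.118). Before adjustment 4 of the 16 were higher and 2 lower, against 5.72% higher and 7.56% lower over all tested genes. DESeq2 called 4 higher and 1 lower, where 301 of all 13590 tested genes were higher and 398 lower (5.14% in either direction and 2.93% lower). The median log2 fold change of the 16 was 0.036.

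All 8 genes listed as regulators of thrombospondin transcription were tested, with 0 higher and 0 lower by edgeR and by DESeq2, which called 1.09% and 5.14% of all tested genes. Before adjustment 0 were higher and 3 lower at the same threshold, Id1, Srf and Yap1, against 7.56% lower over all tested genes. The median log2 fold change of the 8 was -0.18. Id1, a repressor of Thbs1 transcription, measured 30.0, 27.1 and 25.1 CPM in Thbs2KO and 37.1, 40.5 and 31.2 CPM in WT (log2 fold change -0.40, edgeR, Benjamini-Hochberg adjusted p = 0.215). Srf, the serum response factor, measured 54.7, 54.4 and 47.1 CPM in Thbs2KO and 57.0, 73.0 and 76.8 CPM in WT (log2 fold change -0.40, edgeR, Benjamini-Hochberg adjusted p = 0.248). Without WT replicate 1, Srf was called lower (edgeR, Benjamini-Hochberg adjusted p = 0.0486), as it was without both WT replicate 1 and Thbs2KO replicate 3 (adjusted p = 0.00470). The latter fit kept only the pairs of libraries most alike, so its p may understate how much cultures vary.

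**Figure D4:**
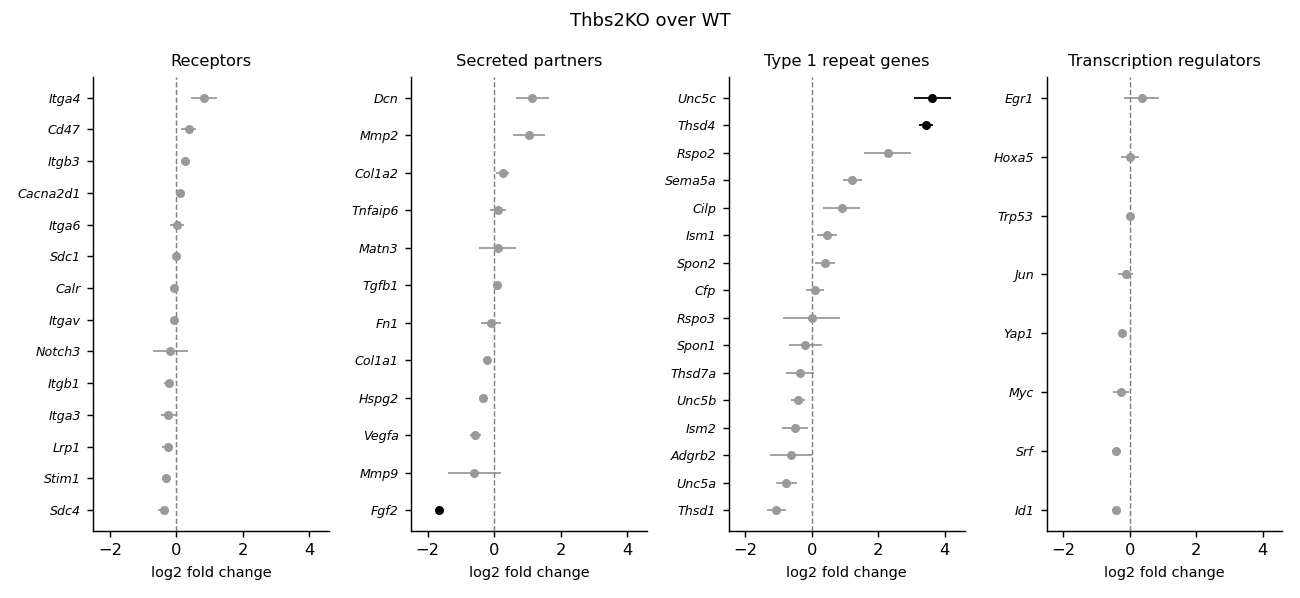
Log2 fold changes of Thbs2KO over WT with their standard errors for the tested genes of 4 lists, receptors, secreted partners, type 1 repeat genes and transcription regulators; black points passed the test (adjusted p below 0.05) and grey points did not. Fgf2 (-1.66), Thsd4 (3.43) and Unc5c (3.63) are the black points.

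Profiles most like those of the 2 abundant members were sought among 10138 tested genes, by the root mean square difference of log2 CPM centred on each gene's mean over the 6 libraries. Among the 5 nearest to Thbs2 were Fhdc1 (0.484), Sik1 (0.515), Gjb2 (0.577) and Htr1b (0.626), all on the log2 scale. Gjb2, the gap junction protein connexin 26, measured 6.76, 7.48 and 5.91 CPM in Thbs2KO and 29.4, 21.9 and 31.4 CPM in WT. Since it was picked for its likeness to Thbs2 in these libraries, its difference between genotypes is no separate result. Among the 5 nearest to Thbs1 were Tgfb3 (0.0709), Pon2 (0.0934), Stom (0.102) and Cnst (0.102). Tgfb3, a TGF-beta isoform, measured 94.0, 103.2 and 140.1 CPM in Thbs2KO and 110.6, 168.5 and 143.4 CPM in WT.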

How the data were processed

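The authors deposited expected counts, reads per gene as estimated by RSEM, for 6 CAF libraries, 3 Thbs2KO and 3 WT. The tools named per the submitters' processing notes are STAR 2.7.3a, RSEM and Trimmomatic 0.39, and the build is mm10. No RSEM version, annotation or read length is given in the sources used here. Per the labels' protocols, a TruSeq v2 RNA kit was used, which does not mark strand.

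Values were rounded to whole numbers (3.80% to 3.88% per library were not whole). Genes were filtered with filterByExpr (13590 kept), scaled with TMM and tested with the robust quasi-likelihood test of edgeR 4.0.16 in R 4.3.3, with genotype as the only term, Benjamini-Hochberg adjustment over all tested genes and a threshold of 0.05. Standard errors and 95% intervals of fold changes were derived from the F statistic. CPM is TMM-scaled over all reads. Lengths, positions and sequences were read from GENCODE M21, whose build GRCm38 is that of mm10. Scripts were tested on simulated data.

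The members, the gene lists and the alternatives were chosen with earlier results of these data known. All 5 members were named; of each list every called gene was named or, where none was called, the 2 with the smallest p; likeness was sought among genes of at least 5 CPM on average whose symbol is not a predicted, clone or pseudogene name, family left out, and the 5 nearest were to be named, of which 1 for each gene is not reported here. Alternatives were other tools (DESeq2 1.42.0, limma-voom of limma 3.58.1), other scalings (upper quartile, RLE), other filters (none, or 1 CPM in 3 libraries), a replicate block, estimation that is not robust, shares per kilobase of transcript or merged exons, single libraries left out, Thbs2KO replicates 1 and 2 summed, and a fit without Thbs2KO replicate 3 and WT replicate 1.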

Additional observations from a re-analysis of the deposited data

How the results depend on the processing

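The count of changed genes over the whole table was 148 as reported and within 1.5 times of it under RLE and upper-quartile scaling, a stricter filter, no robust estimation and limma-voom. It was 245 with no filter, 699 by DESeq2, 40 with Thbs2KO replicates 1 and 2 summed, 1519 without both WT replicate 1 and Thbs2KO replicate 3, and 38 to 397 with 1 library left out, the highest being without WT replicate 1. With a replicate block 30 genes changed, and Thbs2 had a log2 fold change of -2.86 that missed the threshold (edgeR, Benjamini-Hochberg adjusted p = 0.0784). Libraries with the same number did not deviate together (correlations of -0.29, 0.17 and -0.33), but so few values cannot show whether the numbers pair the samples. The block changed no other call among the 5 members, and it lost the call of Unc5c. Thbs2 passed in all other fits, with log2 fold changes of -3.10 to -2.71 with 1 library left out. Thbs3 turned to 0.065 without WT replicate 2, in a range of -0.12 to 0.065 with 1 library left out; the cause was not tested. Thbs1 was called lower, at -0.62, without both libraries that stood apart, a fit of the pairs of libraries most alike. There the other members' sum and the family total stood at -0.61 and -0.87 as log2 ratios of group means. Comp passed the threshold by DESeq2, at -2.67, where 5.14% of all tested genes passed. It could be tested only because of its WT reads, so nothing is read from that call. Per kilobase of merged exons, the WT shares of Thbs2 and Thbs1 were 17.1% and 82.3%. The stricter filter removed Comp, so it gave no value for that gene.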
